A study of Rattus norvegicus with 7 samples.

Results

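Cholesterol efflux genes and targets of the liver X receptors (LXR) were described in rat lung RNA across 10 genes: Abca1, Abcg1, Apoe, Scarb1, Nr1h2, Nr1h3, Mylip, Lpcat3, Pltp and Lipa. Members were chosen by gene symbol. They were proposed with differences between the groups already known, those of Abca1 and Scarb1 among them. Every difference between the groups below is therefore a description with its error, and no member's own p-value is printed. Counts of members past a p threshold are given only beside the share of all probe sets, and nothing is read from them. All 10 genes had at least 1 probe set with a single gene symbol, of 14217 genes that had one on the array. Together they had 19 probe sets, of which 18 lay above the filter on low values (a mean log2 level above 3.64, the median of all probe sets).

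The rats were Dahl Salt Sensitive, bred for a blood pressure that climbs with dietary salt, and weighed 250 to 350 grams. The HSU_Sor group (4 arrays) was kept in hypoxia at an inspired oxygen of about 9.5% and given SU5416 and sorafenib. The HSU group (3 arrays) had the same hypoxia and SU5416 without sorafenib. SU5416 inhibits VEGF receptors, and with hypoxia it produces pulmonary arterial hypertension in rats. Sorafenib inhibits RAF kinases and receptor tyrosine kinases, including those for VEGF and PDGF. Right lungs were taken at 3.5 weeks, after the pulmonary vessels had been perfused with saline, so both groups carried hypoxia and SU5416 and no untreated lung was in the comparison. Normoxic rats and rats given only hypoxia also belong to the study design and were not analysed here. The comparison asks which transcripts differ in the lung with sorafenib on top of hypoxia and SU5416.

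Cells cannot break down the sterol ring, so they dispose of cholesterol by exporting it. LXR-alpha (Nr1h3) and LXR-beta (Nr1h2) are nuclear receptors that bind oxysterols, pair with retinoid X receptors (RXR) and switch on the transporters that pass cholesterol to high-density lipoprotein (HDL). When cholesterol is scarce, a separate set of transcription factors, the SREBPs, raises sterol synthesis and uptake instead. In the lung, macrophages and alveolar type II cells handle large amounts of surfactant lipid, and mice without Abcg1 accumulate lipid in their lungs. Scarb1 and Lipa belong to cholesterol transport and are not classical LXR targets.

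Several arrays stood apart from the rest of their group. A probe set of the MHC gene RT1-Bb was at 3.55 to 3.72 on the HSU_Sor arrays, against 12.57, 12.57 and 3.64 on HSU 1b, 2b and 3b. Another probe set of RT1-Bb was at 13.08 to 14.06 across all arrays, highest on HSU 3b. The low values therefore describe the former probe set and do not show that the gene was silent. Myoglobin (Mb), a heart and muscle gene, was at 2.63 to 2.64 on the HSU_Sor arrays, against 6.88, 5.59 and 2.57 on the HSU arrays. Levels of the hemoglobin chain Hbb were 12.11 and 11.59 on HSU_Sor 3 and 4, below those of the other 5 arrays (14.23 to 14.75). Albumin (Alb), a liver gene, reached 12.38 on HSU_Sor 1 where the remaining arrays spanned 6.76 to 8.14. Of the adipocyte markers, Fabp4 and Cfd were highest on HSU 1b (11.11 and 7.16), against 8.20 to 9.07 and 3.42 to 5.60 on the HSU_Sor arrays. Adipoq, Plin1, Lep and Cidec were near the floor on every array. Lpl and Cd36, described below, were also highest on HSU 1b (13.38 and 12.45), and a part of fat tissue in them was not tested. Every HSU title carries the letter b after its number and no HSU_Sor title does, so anything the letter marks and the treatment cannot be told apart. Array medians of the log2 level spanned 3.59 to 3.68. All 8 alveolar type II markers and all 7 endothelial markers with a probe set were above the filter. With 4 and 3 arrays, it is the number of arrays that sets how precise each value can be.

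Promoter sequence is shown first, for the 2 members whose windows held a TATA box, Abca1 and Mylip. Any part of promoter sequence in the differences between the groups was not tested. Windows run from 250 bases before to 50 bases after a gene's start, from RefSeq on GRCr8. They were found for 8 of the 10 genes, as 10 windows, since Apoe has several starts. Both windows lie on the minus strand and are printed 5′ to 3′ on that strand, at chr5:72596424-72596723 (Abca1) and chr17:19514422-19514721 (Mylip). Capitals mark CACGTG (the E-box), TATAAA (the TATA box) and a match to TGACCGNNAGTAACC, a form of the DR4 element known from the human ABCA1 promoter, in which a pair of receptor motifs is separated by a short spacer.
Abca1: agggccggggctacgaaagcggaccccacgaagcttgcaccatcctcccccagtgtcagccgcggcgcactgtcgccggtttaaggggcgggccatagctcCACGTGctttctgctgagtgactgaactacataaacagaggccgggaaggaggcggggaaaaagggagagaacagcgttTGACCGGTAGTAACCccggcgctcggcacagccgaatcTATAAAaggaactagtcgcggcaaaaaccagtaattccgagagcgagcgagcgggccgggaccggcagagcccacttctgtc
Mylip: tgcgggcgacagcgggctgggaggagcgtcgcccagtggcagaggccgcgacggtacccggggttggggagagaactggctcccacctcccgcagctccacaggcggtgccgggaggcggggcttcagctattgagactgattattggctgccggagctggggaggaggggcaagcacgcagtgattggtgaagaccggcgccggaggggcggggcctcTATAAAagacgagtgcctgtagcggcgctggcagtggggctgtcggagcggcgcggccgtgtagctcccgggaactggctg
The DR4 match in the Abca1 window began 70 bases and ended 56 bases before the start, between the E-box at -149 to -144 and the TATA box at -32 to -27. This form was searched because it was known from the human gene, after the rat sequence had been seen, and 2 of 27457 genes with a window held it. The strict repeat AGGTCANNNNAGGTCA also occurred in windows of 2 genes, none of them a member, and its core GGTCANNNNGGTCA in those of 22 genes. Searching both strands, 7.08% of genes held the E-box, 15.3% the TATA box and 36.0% the GC box GGGCGG, which was found in the windows of Abca1, Apoe, Mylip and Lpcat3. The GC box at -165 to -160 of Abca1 lies upstream of the E-box. A match describes letters only, and no match says only that these letters are not in this window.

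Abca1 and Apoe had higher levels in HSU_Sor lungs and Scarb1 a lower level, while the other 7 genes had overlapping groups. Abca1 (chr5:72473676-72596563) encodes the membrane pump that loads cholesterol and phospholipid onto lipid-poor apolipoprotein A-I, the first step in making HDL. Its brightest probe set, 1382431_at, was at 11.85, 11.94, 12.07 and 12.00 on HSU_Sor 1 to 4, against 10.95, 11.45 and 11.27 on HSU 1b, 2b and 3b (log2 levels). Every HSU_Sor array lay above every HSU array. The means were 11.97 ± 0.09 (SD, n = 4) in HSU_Sor and 11.22 ± 0.25 (SD, n = 3) in HSU, a log2 difference of 0.74 ± 0.12 (SE), or 1.68-fold.

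The other 3 Abca1 probe sets had differences of the same sign. Probe set 1394490_at was at 11.07, 11.49, 11.18 and 11.67 in HSU_Sor, against 10.13, 10.82 and 10.33 in HSU, a log2 difference of 0.93 ± 0.21 (SE). For 1383355_at the levels were 10.30, 10.98, 10.26 and 11.01 in HSU_Sor and 9.60, 10.09 and 9.60 in HSU, a difference of 0.87 ± 0.25 (SE). Neither of these had overlapping groups. The dimmest, 1384381_at, was at 8.75, 9.69, 8.75 and 9.16 in HSU_Sor and at 7.61, 8.80 and 7.45 in HSU. Here HSU 2b lay above HSU_Sor 1 and 3, so the groups overlapped, and the difference was 1.13 ± 0.39 (SE), or 2.19-fold.

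Across the 4 probe sets the folds ran from 1.68 to 2.19, and the SE was largest where the level was lowest. Probe sets of 1 gene share the RNA of the same arrays and are not replicates of the treatment. Their likeness was measured as the root-mean-square difference between 2 log2 profiles over the 7 arrays, each centred on its own mean. It was smallest for 1394490_at and 1383355_at (0.13) and largest for 1382431_at and 1384381_at (0.48). HSU 2b was the highest HSU array in all 4, by 0.34 to 1.27 over the mean of the other 2 HSU arrays. Within HSU_Sor the order differed: HSU_Sor 3 was the highest array for 1382431_at, while HSU_Sor 2 and 4 were the highest for the other 3. With 1 array left out, all 4 differences were largest without HSU 2b, between 0.86 and 1.56. The smallest were 0.61 for 1382431_at and 0.78 for 1394490_at, both without HSU 1b. For 1383355_at the smallest was 0.75, without HSU_Sor 4, and for 1384381_at it was 0.88, without HSU 3b. With HSU 1b and 2b both left out, HSU 3b was the only HSU array, and the differences lay between 0.70 and 1.64.

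**Figure D1:**
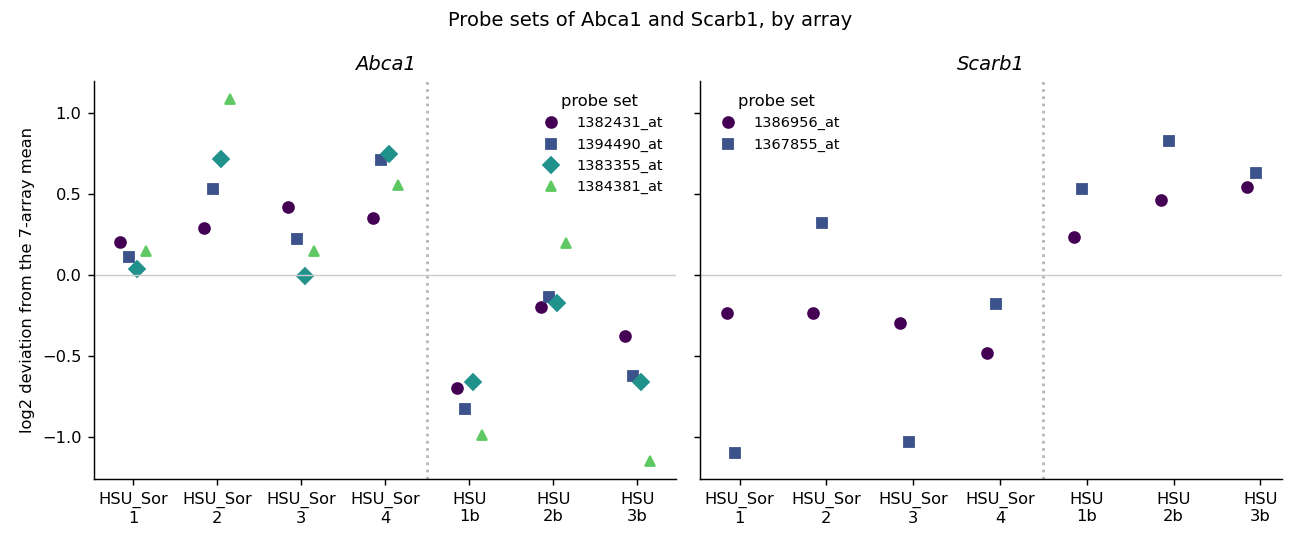
Log2 deviation from the 7-array mean (vertical axis) for the 4 probe sets of Abca1 and the 2 of Scarb1 on each array (horizontal axis, HSU_Sor left of HSU), with 1 symbol per probe set. All Abca1 probe sets lay higher in HSU_Sor apart from the overlap of 1384381_at at HSU 2b, and both Scarb1 probe sets lay lower in HSU_Sor on every array.

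Abcg1 (chr20:9128056-9184312), the transporter that passes cholesterol to HDL particles already formed, differed by less. Its brightest probe set, 1368103_at, was at 13.30, 13.41, 13.27 and 13.48 in HSU_Sor, against 13.30, 12.91 and 13.18 in HSU. The groups overlapped through HSU 1b. The log2 differences of its 3 probe sets were 0.24 ± 0.10, 0.37 ± 0.19 and 0.10 ± 0.20 (SE), the last for 1387054_at, where the sign turned to -0.07 without HSU_Sor 4. The second probe set, 1373995_at, was at 0.13 without HSU_Sor 3 and 4 together. Without HSU 2b the brightest probe set differed by 0.13. The gap between Abca1 and Abcg1 was not tested.

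Apoe (chr1:88481889-88485816) encodes apolipoprotein E, a lipid acceptor that macrophages secrete and an LXR target in them. Probe set 1370862_at was at 12.11, 12.22, 12.75 and 12.93 in HSU_Sor, against 11.79, 11.38 and 12.03 in HSU. All HSU_Sor arrays lay above all HSU arrays, but HSU_Sor 1 exceeded HSU 3b by little. The means were 12.50 ± 0.40 (SD, n = 4) in HSU_Sor and 11.73 ± 0.33 (SD, n = 3) in HSU, a log2 difference of 0.77 ± 0.25 (SE) or 1.71-fold. HSU_Sor 3 and 4, the arrays low in Hbb, exceeded HSU_Sor 1 and 2 by 0.67 on average, and without them the difference was 0.43. Without HSU 1b and 2b, and so against HSU 3b alone, it was 0.48. A second Apoe probe set, 1371288_at, was near the floor of the array on all 7 arrays (3.58 to 3.76 in HSU_Sor and 3.68 to 3.83 in HSU), with a difference of -0.07 ± 0.07 (SE), and gave no measure of the gene.

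Markers of macrophages were set beside Abca1 and Apoe. Of 13 genes listed, 10 had a probe set and 8 were above the filter, with a mean log2 level of 9.26 to 9.96 on the HSU_Sor arrays and 9.73 to 10.69 on the HSU arrays. Differences were above 0 for 4 genes and below 0 for 4, with a median of -0.09. The 3 chains of complement C1q, made by macrophages and picked here after their values were seen, differed by -1.70 (C1qa), -2.69 (C1qb) and -1.68 (C1qc), while Cd68, Csf1r, Cd14 and Mrc1 differed by 0.39, 0.17, 0.07 and 0.01 and Adgre1 by -0.20. Cd163 and Itgam were near the floor on every array (2.33 to 2.56). Alveolar type II markers had a mean level of 14.20 to 14.29 in HSU_Sor and 14.19 to 14.38 in HSU. In whole lung, fewer cells of a type and less RNA per cell cannot be told apart, and the part that cell composition had in the differences of Abca1 and Apoe was not tested.

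Scarb1 (chr12:36957302-37023982) encodes the HDL receptor SR-BI, which takes up cholesteryl ester from HDL without taking in the particle. It was lower in HSU_Sor lungs, opposite in sign to Abca1. Probe set 1386956_at was at 9.85, 9.85, 9.79 and 9.60 in HSU_Sor, against 10.32, 10.55 and 10.63 in HSU. All 4 HSU_Sor levels were under the lowest HSU level. The means were 9.77 ± 0.12 (SD, n = 4) in HSU_Sor and 10.50 ± 0.16 (SD, n = 3) in HSU, a difference of -0.73 ± 0.10 (SE), so that the level was 1.66-fold lower.

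The dimmer Scarb1 probe set, 1367855_at, was at 7.60, 9.02, 7.67 and 8.52 in HSU_Sor and at 9.23, 9.53 and 9.33 in HSU. Again no HSU_Sor array reached the lowest HSU array. HSU_Sor 1 and 3 were far lower than HSU_Sor 2 and 4 at this probe set and not at the brighter one, and the centred profiles of the 2 probe sets differed by 0.52. Its difference was -1.16 ± 0.36 (SE), or 2.24-fold lower, and ranged from -1.43 to -0.96 when 1 array was left out. Smooth muscle markers, all 8 above the filter, had a mean level of 10.81 to 11.32 in HSU_Sor and 11.65 to 11.82 in HSU. All 8 differences were below 0 (median -0.62). Groups did not overlap for 5: Actg2 (-1.45), Des (-1.10), Cnn1 (-0.84), Tagln (-0.72) and Smtn (-0.51). Of all tested probe sets, 3.25% were lower without overlap. Groups overlapped for Acta2 (-0.04), Myh11 (-0.27) and Lmod1 (-0.12). With limma, 0 passed the adjusted threshold and 4 were lower at an unadjusted p below 0.05, as were 3.67% of all tested probe sets. Fibroblast markers (6 of 6, all below 0) were at 12.46 to 12.51 in HSU_Sor and 12.73 to 12.91 in HSU, and endothelial markers at 12.41 to 12.86 in HSU_Sor and 12.54 to 12.69 in HSU. Their part in the Scarb1 difference was not tested.

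**Figure D2:**
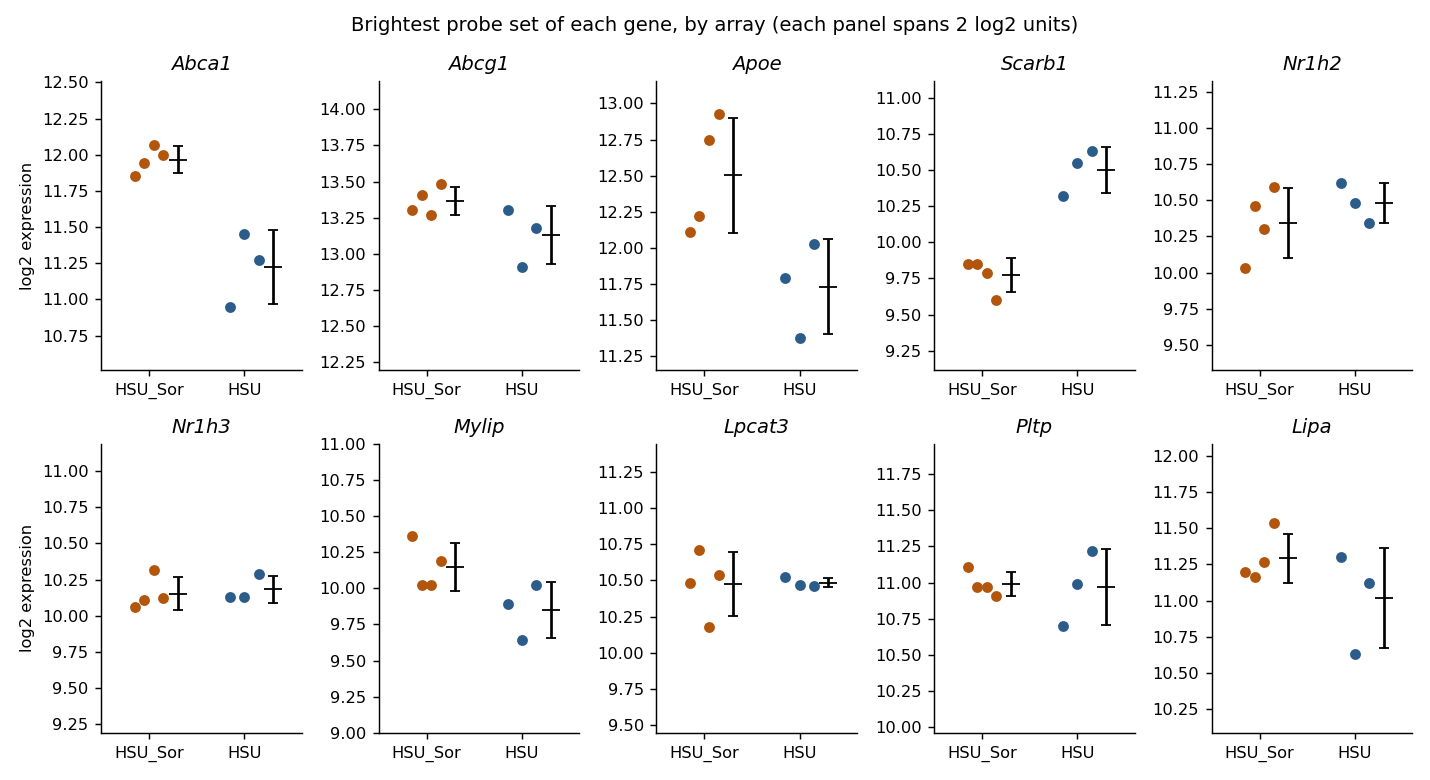
Log2 expression (vertical axis) of the brightest probe set of each of the 10 genes on the 4 HSU_Sor and 3 HSU arrays, 1 point per array, with the mean and SD as the bar beside them. Every panel spans the same log2 range; Abca1, Apoe and Scarb1 are the genes whose groups did not overlap.

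The receptors themselves had differences near 0. Nr1h3 (chr3:97614616-97632053), the LXR of macrophages and liver, was at 10.06, 10.11, 10.32 and 10.12 in HSU_Sor, against 10.13, 10.13 and 10.29 in HSU. The difference was -0.03 ± 0.08 (SE), with a 95% interval from -0.23 to 0.16. Nr1h2 (chr1:104178483-104183863), the LXR found in most tissues, was at 10.03, 10.46, 10.30 and 10.59 in HSU_Sor and at 10.62, 10.48 and 10.34 in HSU at probe set 1370208_at. Its difference was -0.13 ± 0.14 (SE), with a 95% interval from -0.48 to 0.21, and the groups overlapped for both receptors. A second Nr1h2 probe set, 1389854_at, was at 1.96 to 2.00 in HSU_Sor and 1.97 to 2.01 in HSU, and was the member probe set below the filter.

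The remaining members had overlapping groups. Mylip (chr17:19492826-19514490) encodes a ubiquitin ligase, also called IDOL, that marks the LDL receptor for breakdown. It was at 10.36, 10.02, 10.02 and 10.19 in HSU_Sor, against 9.89, 9.64 and 10.02 in HSU. The groups met at HSU 3b, and the difference of 0.30 ± 0.12 (SE) was 0.19 without HSU 2b. Against HSU 3b alone, without HSU 1b and 2b, the Mylip difference was 0.13. Lipa (chr1:241437524-241470936), the lysosomal lipase that frees cholesterol from its esters, was at 11.20, 11.16, 11.27 and 11.54 in HSU_Sor and at 11.30, 10.63 and 11.12 in HSU. Its difference of 0.28 ± 0.18 (SE) rested on HSU 2b, without which it was 0.08.

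Lpcat3 and Pltp differed by little. Lpcat3 (chr4:159154690-159196176), which adds polyunsaturated chains to membrane phospholipids, differed by -0.01 ± 0.12 (SE) at 1393915_at and by -0.11 ± 0.06 (SE) at 1376813_at. At the first, HSU_Sor arrays spanned 10.18 to 10.71 and enclosed the HSU arrays (10.46 to 10.52). Pltp (chr3:173994162-174011982), the plasma phospholipid transfer protein, was at 11.11, 10.97, 10.97 and 10.91 in HSU_Sor, against 10.70, 10.99 and 11.22 in HSU. Its difference was 0.02 ± 0.12 (SE), with a 95% interval from -0.28 to 0.32, and the HSU arrays enclosed the HSU_Sor arrays.

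**Figure D3:**
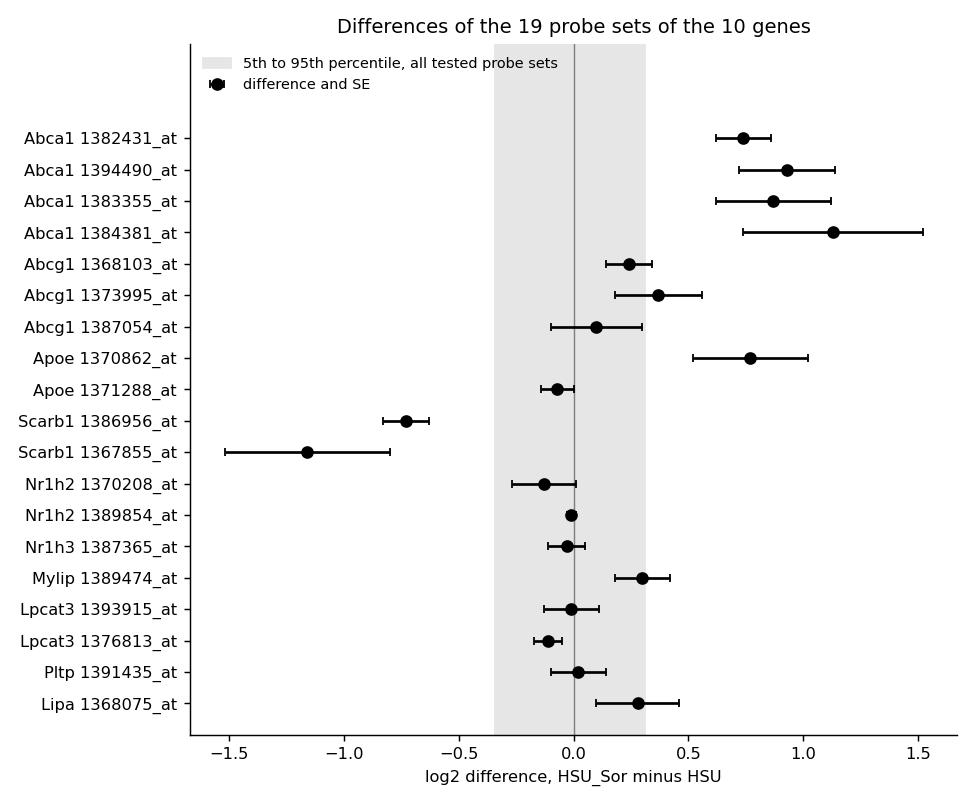
Log2 difference, HSU_Sor minus HSU (horizontal axis), of each of the 19 probe sets, with its SE as the bar. The shaded band holds the differences from the 5th to the 95th percentile of all tested probe sets (-0.34 to 0.31); the 4 Abca1 probe sets, 1370862_at of Apoe and 1373995_at of Abcg1 lie above it and the 2 Scarb1 probe sets below it.

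Across the whole array, limma called 0 probe sets at an adjusted p below 0.05 (0.0% of 15521), so no member passed it. At an unadjusted p below 0.05, 362 probe sets were higher and 569 lower in HSU_Sor. Of the members, 6 of the 18 tested member probe sets were higher and 2 lower at that level, where 2.33% of all tested probe sets were higher and 3.67% lower. When an unadjusted p under 0.01 was required together with a 1.4-fold or larger difference, 2 were higher (both Abca1, 0.232% of all) and 1 was lower (Scarb1, 0.612% of all). Groups did not overlap for 4 member probe sets higher in HSU_Sor and 2 lower, where 2.01% and 3.25% of all tested probe sets had such groups. Nothing is read from these counts, since the members were proposed with this contrast known. The median difference of the brightest probe sets was 0.13 over the 10 genes and that of all tested probe sets was -0.01, with 6 members above 0 and 4 below.

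The deviations of the genes from their means did not run in parallel from array to array. On HSU 2b, Apoe was at -0.80, Lipa at -0.54, Mylip at -0.38 and Abcg1 at -0.35, the lowest array of each gene. Abca1 on the same array was at -0.20, the highest of the HSU arrays. HSU 2b thus combined the highest Abca1 with the lowest Apoe, Abcg1, Mylip and Lipa of its group. Within HSU_Sor, Apoe, Abcg1 and Lipa were highest on array 4, Mylip on array 1 and Abca1 on array 3.

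**Figure D4:**
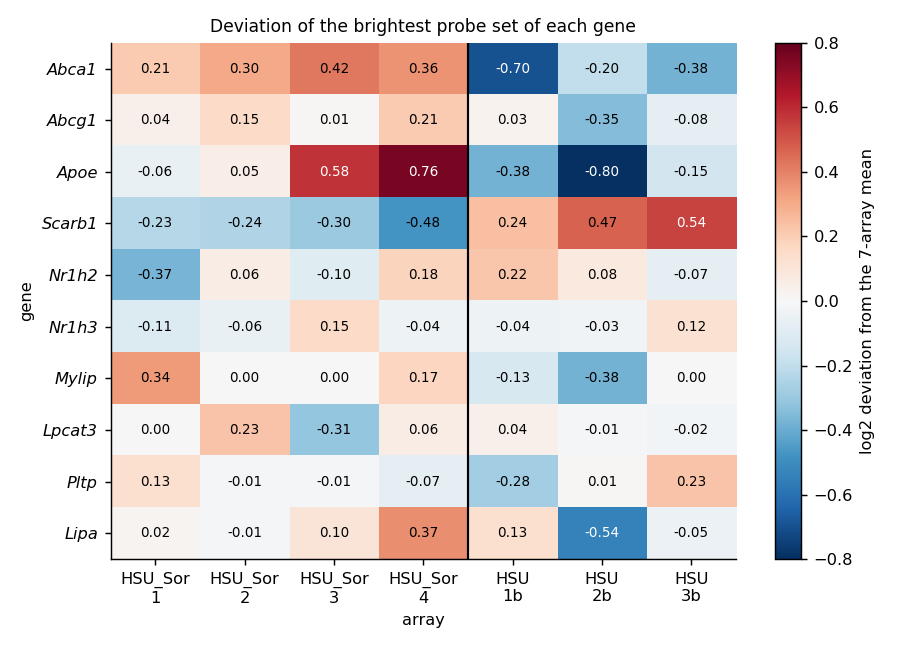
Log2 deviation of the brightest probe set of each gene (rows) from its 7-array mean on each array (columns, HSU_Sor left of HSU), with the value in each cell. Abca1 is above 0 on all HSU_Sor arrays and below 0 on all HSU arrays, Scarb1 shows the opposite, and Apoe, Abcg1, Mylip and Lipa are lowest on HSU 2b.

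The genes whose profile was most like a member's were found by the same root-mean-square measure over 7 arrays, among 12173 tested probe sets with 1 symbol. For the brightest Abca1 probe set they were Ptprr (0.089), Cyp27a1 (0.129) and osteoglycin (Ogn, 0.145). Cyp27a1, a mitochondrial enzyme that makes an oxysterol, was at 9.85, 9.94, 10.24 and 9.81 in HSU_Sor, against 9.04, 9.60 and 9.47 in HSU. The groups did not overlap, in a gene picked for its likeness to Abca1, and the difference was 0.58 ± 0.16 (SE). For the brightest Scarb1 probe set the nearest were Basp1 (0.084), Pdzrn3 (0.112) and Calu (0.116), with differences of -0.70, -0.55 and -0.55.

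Genes around the efflux pathway were described from lists drawn up by function, each gene by its brightest probe set. Of the enzymes that make or break oxysterols, the natural LXR ligands, 4 of 8 listed were above the filter, with a median difference of 0.08. Besides Cyp27a1, Ch25h, a hydroxylase of cholesterol, was at 8.73, 9.05, 8.97 and 7.61 in HSU_Sor, against 9.33, 9.08 and 9.32 in HSU. Its groups did not overlap either, in the opposite direction to Cyp27a1, though HSU_Sor 2 lay just under HSU 2b, and the difference was -0.65 ± 0.35 (SE). Hsd3b7, an enzyme of bile acid synthesis, differed by 0.20 ± 0.12 (SE). Cyp7b1, which breaks oxysterols down, was near the floor on every array (4.00 to 4.10 in HSU_Sor and 4.09 to 4.16 in HSU).

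Other LXR targets, mostly of fatty acid synthesis and lipoproteins, showed no common direction. Of 20 listed, 9 were above the filter, 5 above 0 and 4 below, with a median of 0.04 and 0 past an unadjusted p below 0.05 with limma. Npc2, which binds cholesterol in lysosomes, differed by -0.02 ± 0.10 (SE), and the transglutaminase Tgm2 by -0.15 ± 0.09 (SE). Fatty acid synthase (Fasn) differed by -0.11 ± 0.13 (SE) and lipoprotein lipase (Lpl) by -0.24 ± 0.20 (SE). These 4, the brightest of the list, are also its 4 genes below 0. Those above 0, named after their values were seen, were Scd (0.65 ± 0.81, SE), Srebf1 (0.35 ± 0.33), Acaca (0.32 ± 0.16), Smpdl3a (0.25 ± 0.25) and Rara (0.04 ± 0.08). Abcg5, Abcg8 and Cyp7a1, known mainly from liver or gut, were among the 7 genes below the filter.

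RXR partners, PPARs and coregulators had a median difference of 0.01 over 10 genes above the filter, 6 above 0 and 4 below. Ncoa1, a coactivator of nuclear receptors, was at 11.58, 11.67, 11.91 and 11.63 in HSU_Sor, against 11.28, 11.41 and 11.55 in HSU. Its groups did not overlap, by a narrow gap, and the difference was 0.28 ± 0.10 (SE). The corepressor Ncor1 differed by 0.01 ± 0.06 (SE), Ncoa6 by 0.10 ± 0.10 (SE) and the acetyltransferase Ep300 by 0.13 ± 0.11 (SE). The Rxra probe set was near the floor (1.85 to 2.13 in HSU_Sor and 1.86 to 1.90 in HSU) and says nothing of that gene. Rxrg, Rxrb and Ppard, named after their values were seen, are among the genes counted below 0. Rxrg was at 4.08 to 4.10 in HSU_Sor and 4.09 to 4.11 in HSU. In HSU, Rxrb was at 5.47 to 5.50 and Ppard at 6.22 to 6.23. Arrays hardly differed at such dim probe sets, so the median and the counts are a weak measure of RXR and PPAR genes.

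Transcripts of intracellular cholesterol handling (14 of 16 above the filter) had a median of -0.05, with 4 above 0 and 10 below. Caveolin (Cav1) differed by -0.08 ± 0.07 (SE), Lamp1 by -0.06 ± 0.05 (SE) and Lamp2 by 0.06 ± 0.07 (SE). HDL and lipoprotein partners (6 of 16 above the filter) had a median of 0.05, with Vldlr at 0.13 ± 0.08 (SE), Abca3, the surfactant lipid pump, at 0.13 ± 0.09 (SE), Cd36 at 0.05 ± 0.36 (SE) and Lrp1 at -0.08 ± 0.09 (SE). Abca7, included in that median, hardly differed between arrays (5.05 to 5.07 in HSU_Sor and 5.05 to 5.06 in HSU). The apolipoprotein A-I gene (Apoa1) was near the floor (2.17 to 2.22 in HSU_Sor and 2.19 to 2.23 in HSU). Its product accepts the cholesterol Abca1 exports and is made in liver and gut. With limma, 0 genes of either list passed the adjusted threshold, and 1 gene, Stard5, named after its value was seen, was higher at an unadjusted p below 0.05 (0.32 ± 0.13, SE), as were 2.33% of all tested probe sets.

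Sterol synthesis and its regulators stood on the other side of 0. Of 12 genes listed, 8 had a probe set, all 8 above the filter and all 8 with a difference below 0 (median -0.37). Of all tested probe sets, 46.0% had a difference above 0. The list was chosen with earlier results of these data known, and nothing is read from its counts. With limma, 2 of them (Idi1 and Cyp51) were lower by 1.4-fold or more at an unadjusted p under 0.01, as were 0.612% of all tested probe sets, and 0 passed the adjusted threshold. Idi1, an isomerase of the sterol pathway, was at 10.10, 10.25, 9.88 and 10.34 in HSU_Sor, against 11.26, 10.82 and 11.51 in HSU, a difference of -1.05 ± 0.19 (SE). Cyp51, the lanosterol demethylase, was at 10.42, 10.29, 10.34 and 10.44 in HSU_Sor, against 11.05, 10.78 and 11.72 in HSU, a difference of -0.81 ± 0.21 (SE). In both, HSU 3b was the highest array and no HSU_Sor array reached the lowest HSU array. The groups of every other gene of the list with a probe set overlapped. Groups lay lower without overlap for 3.25% of all tested probe sets. Insig1 differed by -0.19 ± 0.18 (SE) and Srebf2, which encodes the SREBP of sterol synthesis, by -0.06 ± 0.10 (SE). The difference between this list and the efflux genes was not tested.

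**Figure D5:**
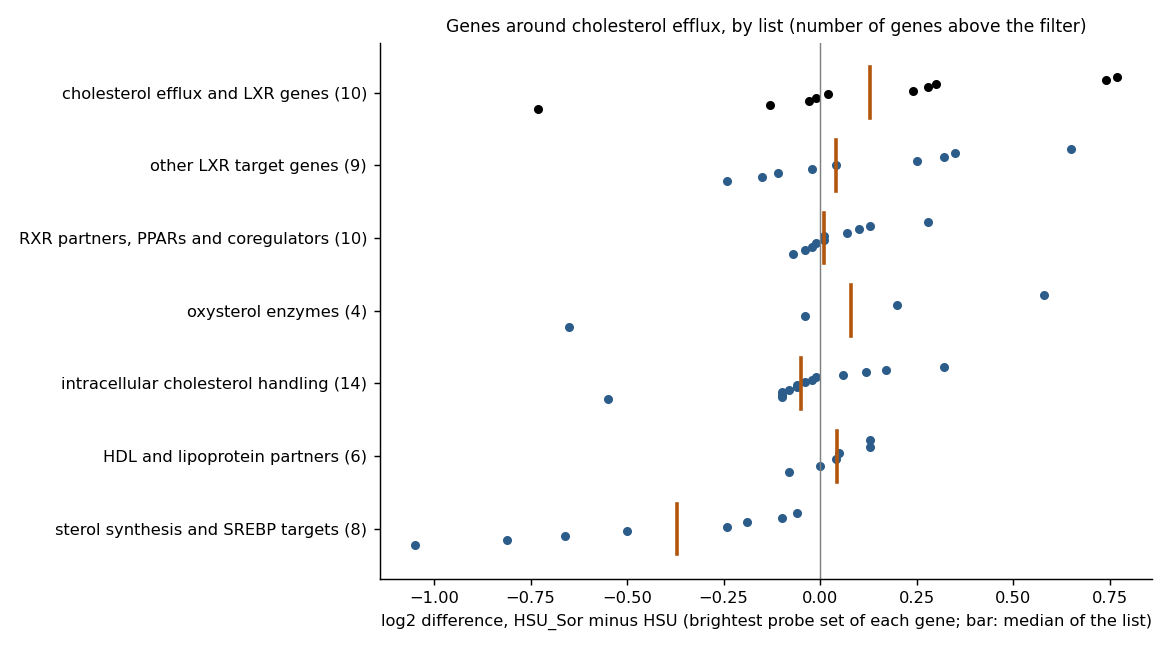
Log2 difference, HSU_Sor minus HSU (horizontal axis), of each gene above the filter at its brightest probe set, by list (rows, with the number of genes); the upright bar is the median of the list. The sterol synthesis list lies wholly below 0 with a median of -0.37, while the medians of the other lists plotted lie between -0.05 and 0.13. Marker lists are not plotted. Those of smooth muscle (median -0.62), fibroblasts (-0.27), cardiac muscle (-1.20), adipocytes (-1.41) and erythroid cells (-2.03) also lay wholly below 0, and that of liver wholly above (1.03).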

How the data were processed

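RNA of 7 lungs was measured on Affymetrix rat arrays from biotin-labelled cRNA, per the labels' protocols. Values deposited by the authors are log2 expression levels, 1 per probe set and array. RMA and GCRMA are named in the submitters' processing notes. The sources used here do not give which of them made these values. Many probe sets lie at a floor at which the arrays hardly differ, and such values give no measure of a gene. The 57 control probe sets were left out. Of 31042 others, 20826 had 1 gene symbol in the platform annotation, 436 several and 9780 none; 20758 were matched by gene identifier to the GRCr8 gene table and 0 symbols changed.

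HSU_Sor minus HSU was fitted with limma (version 3.58.1, R version 4.3.3; lmFit and eBayes, two-sided, no covariate) on the 15521 probe sets with a mean above 3.64, with Benjamini-Hochberg adjustment. Values of probe sets below the filter come from the same fit on all 31042. The script was tested on simulated data. Each array was taken as a separate rat, as the design counts animals. Members and lists were chosen with earlier results of these data known. All members were named. Of each other list, the 4 genes with the highest mean level and any gene past an unadjusted p of 0.01 and a fold of 1.4 could be named. Other names given with a change were picked by likeness to a member, complete a list, or are said to be picked after their values were seen. Probe sets compare arrays and not genes, so levels of different genes were not compared. Alternatives were other filters, quantile normalization, median centring, an offset of 32, a trended robust prior, array weights, a replicate block, and arrays left out.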

Additional observations from a re-analysis of the deposited data

How the results depend on the processing

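The number of probe sets past an adjusted p of 0.05 was 0 and remained 0 with no filter, quantile normalization, median centring, the offset, the trended prior, array weights and without HSU_Sor 3 and 4 together. It was 6 with a filter at the 75th percentile and 10 without HSU 1b and 2b together, and 0 to 6 with 1 array left out, the 6 being without HSU 3b. Probe sets with a 1.4-fold or larger difference and an unadjusted p under 0.01 numbered 131, against 87 with the 75th percentile filter, where fewer were tested, 263 without HSU 1b and 2b, 215 without HSU_Sor 3 and 4, and 105 to 143 with 1 array left out. The cause of the higher counts was not tested. Deviations of same-numbered arrays correlated at -0.059, 0.179 and 0.144, and arrays did not each correlate best with their own number, so the numbers were not taken as pairs; with the number as a replicate block the counts were 0 and 147. Of 333 alternative values of members, 328 moved by less than the spread between replicates. Many of them could not move. Filters and the trended prior leave a difference as it is, as does the mean over probe sets for genes with 1 probe set. The replicate block gave the same differences as leaving out HSU_Sor 4. The count is therefore no measure of how stable the members are. The exceptions were Nr1h3 (-0.14) and Pltp (-0.22) without HSU 1b and 2b, Lpcat3 1376813_at (-0.04) without HSU_Sor 3 and 4, and the mean of all probe sets for Apoe (0.35) and Scarb1 (-0.94). Abca1 and Scarb1 kept their sign at every probe set under all 17 alternatives, including the settings that could not move it. Signs turned for 1387054_at of Abcg1, for both probe sets of Nr1h2, for Nr1h3 and Pltp, and for 1393915_at of Lpcat3. Dim probe sets at which arrays hardly differed limit what can be said of Rxra, Rxrg, Abca7, Apoa1 and the second probe sets of Apoe and Nr1h2.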

Other observations

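The dimmer probe sets of Abca1 and Scarb1 varied on the same arrays although their groups differed in opposite directions. Within HSU_Sor, 1384381_at of Abca1 was at 9.69 and 9.16 on arrays 2 and 4 and at 8.75 on both arrays 1 and 3. Scarb1 probe set 1367855_at was at 9.02 and 8.52 on arrays 2 and 4 and at 7.60 and 7.67 on arrays 1 and 3. In HSU both were highest on array 2b. The spread within groups of these 2 probe sets (SD 0.58 and 0.54) exceeded that of 95.7% and 94.8% of tested probe sets, and the brightest probe set of neither gene was highest on HSU_Sor 2 and 4. Among HSU arrays, that of Abca1 was also highest on 2b. Those brightest probe sets, with SDs of 0.18 for Abca1 and 0.14 for Scarb1, lay near the median SD of 0.15. Levels on HSU_Sor 2 and 4 above those on HSU_Sor 1 and 3 were not particular to the dimmer probe sets of Abca1 and Scarb1. The same was seen at 1394490_at and 1383355_at of Abca1, 1368103_at and 1387054_at of Abcg1 and 1370208_at of Nr1h2.

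Spread also differed between other probe sets, including those of 1 gene, Lpcat3. The within-group SD of Nr1h3 was 0.11, above 33.2% of tested probe sets, and that of 1376813_at of Lpcat3 was 0.07, above 17.7%, while that of its brighter 1393915_at was 0.18, above 59.4%. No array of the HSU_Sor group stood apart from the other 3 at any of the 19 probe sets by Dixon's criterion. The HSU group was not examined with that criterion.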
